A study of Mus musculus with 4 samples.

Results

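The alcohol, aldehyde and steroid dehydrogenases of liver were described here as 68 genes of 18194 measured on mouse arrays. They were chosen by name, as every gene whose symbol begins with Adh, Aldh, Akr1, Akr7, Rdh, Hsd3b, Hsd11b or Hsd17b and whose probe sets (groups of short probes for one transcript) carry that symbol alone, with Aldh18a1, Hsd3b7, Hsd17b4 and Hsd17b7 left out. The names gave 8 families, with 8 Adh, 19 Aldh, 14 Akr1, 1 Akr7, 11 Rdh, 4 Hsd3b, 2 Hsd11b and 9 Hsd17b genes on 108 probe sets.

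Each of 4 genotypes was measured on 1 Affymetrix mouse array, with liver RNA of 3 mice pooled for it. ΔS6:c-Myc mice have Rps6, the gene of ribosomal protein S6, deleted in liver and also carry a c-Myc transgene behind the Albumin promoter. ΔS6 mice have the deletion without the transgene, from 2 floxed Rps6 alleles and Cre recombinase driven by the Albumin promoter (Alb-Cre). Alb-c-Myc mice carry the transgene with Rps6 intact, and WT mice carry the floxed alleles without Cre, as the study's tables head them. All mice were described as non-fasted males of 5 weeks. Alb-Cre acts from the hepatoblast stage, so its targets include cells of both the hepatocyte and the biliary lineage, and the study describes the deletion as incomplete. Whether Alb-c-Myc mice also carry floxed alleles is not given in the sources used here. With 1 array per genotype, no difference below has a replicate error, no test was run and no p-value is given. Values are on the log2 scale, from RMA, which summarizes the probes of each probe set over all arrays. Differences are log2 ratios between 2 arrays, and at least 2-fold (a log2 ratio of 1 or more in size) was the size at which a gene was counted.

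These enzymes move hydrogen between a hydroxyl or aldehyde group and a nicotinamide cofactor. Adh enzymes oxidize alcohols to aldehydes, which Aldh enzymes oxidize further to acids, and the pair clears ethanol in hepatocytes. The same chemistry makes retinal and retinoic acid from retinol, with Rdh enzymes for the first step and several Aldh1a enzymes for the second. The aldo-keto reductases (Akr) mostly run in the reducing direction. Hsd enzymes and several Akr1c enzymes switch steroid hormones between active and inactive forms.

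Array medians over all probe sets were between 6.85 and 6.88 on the log2 scale, and the brightest probe sets lay between 15.39 and 15.46. Of 10 hepatocyte markers listed, among them Alb and Ttr, 9 were measured and differed by log2 ratios of -0.65 to 0.06 in ΔS6 over WT, with 0 of 9 past 2-fold. The summed level of 6 bile duct and progenitor markers was 10.89 in ΔS6:c-Myc, 14.34 in ΔS6, 9.48 in Alb-c-Myc and 9.57 in WT. For 5 neutrophil markers it was 9.44 in ΔS6:c-Myc, 14.52 in ΔS6, 9.28 in Alb-c-Myc and 9.46 in WT. For 7 macrophage and Kupffer cell markers it was 13.72 in ΔS6:c-Myc, 15.11 in ΔS6, 12.97 in Alb-c-Myc and 13.13 in WT, and for 8 stellate cell markers 14.12 in ΔS6:c-Myc, 14.98 in ΔS6, 13.64 in Alb-c-Myc and 13.70 in WT. The summed markers of these cell types were thus highest in ΔS6, although among stellate markers Lrat (-0.01) and Des (0.26) were within 2-fold over WT. Other sums were lowest in ΔS6. For 2 erythroid markers the sum was 9.3 in ΔS6, against 10.4 to 10.8 on the other arrays. For 5 adrenal cortex and gonad markers it was 9.2, against 9.4 to 9.6. The part of other cell types in the differences below was not tested. In whole liver, fewer cells of a type and less RNA per cell cannot be told apart. The WT array stood apart in 2 ways. It carried the X-inactivation transcript Xist at 11.84, against 5.88 to 6.33 on the other arrays, although Y-linked Eif2s3y was at 8.67 in WT and 8.91 to 9.11 on the others, and its 7 exocrine pancreas markers summed to 13.22, against 10.94 to 11.82 on the others. Counts for ΔS6 over WT are therefore also given for ΔS6 over Alb-c-Myc, as are named genes past 2-fold in one and not in the other.

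Most of the dehydrogenase genes were lower in ΔS6 than in any other liver. Of the 68, 44 had their lowest value on the ΔS6 array, 12 on ΔS6:c-Myc, 9 on Alb-c-Myc and 3 on WT. The same count over all genes was not made, so how far it is particular to these families is not known. The median over the 68 genes was 10.91 in ΔS6:c-Myc, 10.69 in ΔS6, 11.22 in Alb-c-Myc and 11.78 in WT. Gene by gene the differences were smaller than between these medians. The median log2 ratio over WT was -0.16 in ΔS6:c-Myc, -0.42 in ΔS6 and -0.07 in Alb-c-Myc. Values of at least 12 were found for 24 members in ΔS6:c-Myc, 21 in ΔS6, 31 in Alb-c-Myc and 31 in WT, while the share of all genes at that level stayed between 5.79% and 6.10%. At the other end, Adh6a, Aldh1a2, Aldh3a1, Hsd17b1, Hsd17b3 and Rdh1 were below 6 on every array, a level not shown to be above background.

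In ΔS6 over WT, 10 members were at least 2-fold lower, 14.7% against 2.54% of all 18194 genes, and 4 were at least 2-fold higher, 5.88% against 7.24% of all genes. The share of members lower was above the share of all genes, and the share higher was near it. Members were brighter than most genes, with 45.6% at 12 or above in WT against 6.1% of all genes. Among genes with a mean of at least 6, 3.26% were lower and 8.80% higher. The median log2 ratio was -0.42 over members and -0.05 over all genes, and 56 of the 68, or 82.4%, were below 0, against 56.0% of all genes. The 10 lower genes were Hsd3b5, Hsd3b2, Hsd3b3, Rdh16, Adh4, Akr1c14, Hsd11b1, Akr1c12, Adhfe1 and Aldh5a1, and the 4 higher ones were Akr1c18, Akr1b8, Aldh1b1 and Akr1b10. Against the Alb-c-Myc array, ΔS6 again had 10 members lower and 4 higher, with a median of -0.28, while 2.23% of all genes were lower and 7.0% higher, with a median of -0.06. The lower ones were those just named, and among the higher ones Rdh16f2 (1.72) stood in place of Aldh1b1 (0.79). Few members were past 2-fold between the 2 livers with intact Rps6. In Alb-c-Myc over WT 1 was lower (Rdh16f2), 1.47% against 0.335% of all genes, and 1 was higher (Hsd3b5), 1.47% against 0.418%. The WT array of this pair also stood apart in Xist and pancreas markers. An effect of the transgene on these 2 genes cannot be told apart from that difference between the pools. In ΔS6:c-Myc over WT 8 were lower, 11.8% against 1.80% of all genes, and 2 were higher, 2.94% against 3.00%. The 8 were Hsd3b5 (-3.52), Hsd3b2 (-2.11), Rdh16f2 (-1.70), Rdh9 (-1.49), Hsd3b3 (-1.42), Hsd11b1 (-1.25), Akr1d1 (-1.05) and Hsd17b11 (-1.04), and the 2 were Akr1c19 (1.56) and Aldh1b1 (1.08). In all, 19 members passed 2-fold in at least 1 comparison. How many of all genes did so was not counted, so whether 19 is particular to these families is not known. The other 49 members stayed within -0.88 to 0.31 in ΔS6 over WT and within -0.35 to 0.26 in Alb-c-Myc over WT.

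**Figure D1:**
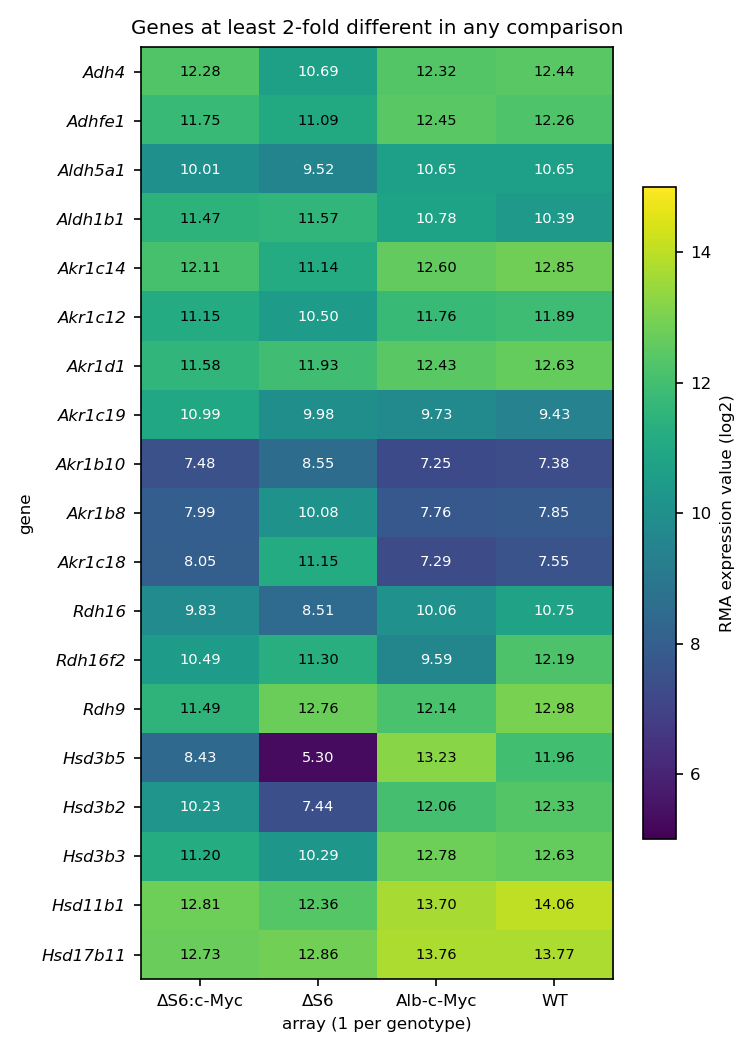
RMA expression values (log2, colour scale and printed numbers) of the 19 genes that differed at least 2-fold in any comparison, with 1 row per gene in order of family and 1 column per array, each array a pool of 3 mice. Hsd3b5 runs from 5.30 in ΔS6 to 13.23 in Alb-c-Myc, and Akr1c18 stands at 11.15 in ΔS6 against 7.29 to 8.05 on the other arrays.

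Between families, the median log2 ratio of ΔS6 over WT was -3.61 for the 4 Hsd3b genes and -0.80 for the 2 Hsd11b genes. It was -0.52 for Akr1, -0.39 for Rdh, -0.38 for Adh, -0.36 for Aldh and -0.19 for Hsd17b genes, and the single Akr7 gene, Akr7a5, was at -0.67. All families thus had a median below 0, where the median over all genes was -0.05, with Hsd3b far from the rest. The Hsd3b family ran from -6.65 to -0.30. The Akr1 family ran from -1.71 to 3.60 and held 2 genes at least 2-fold lower and 3 at least 2-fold higher, of 14. The shares of all genes were 2.54% lower and 7.24% higher. The Hsd3b median was -1.76 in ΔS6:c-Myc over WT and -0.04 in Alb-c-Myc over WT.

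**Figure D2:**
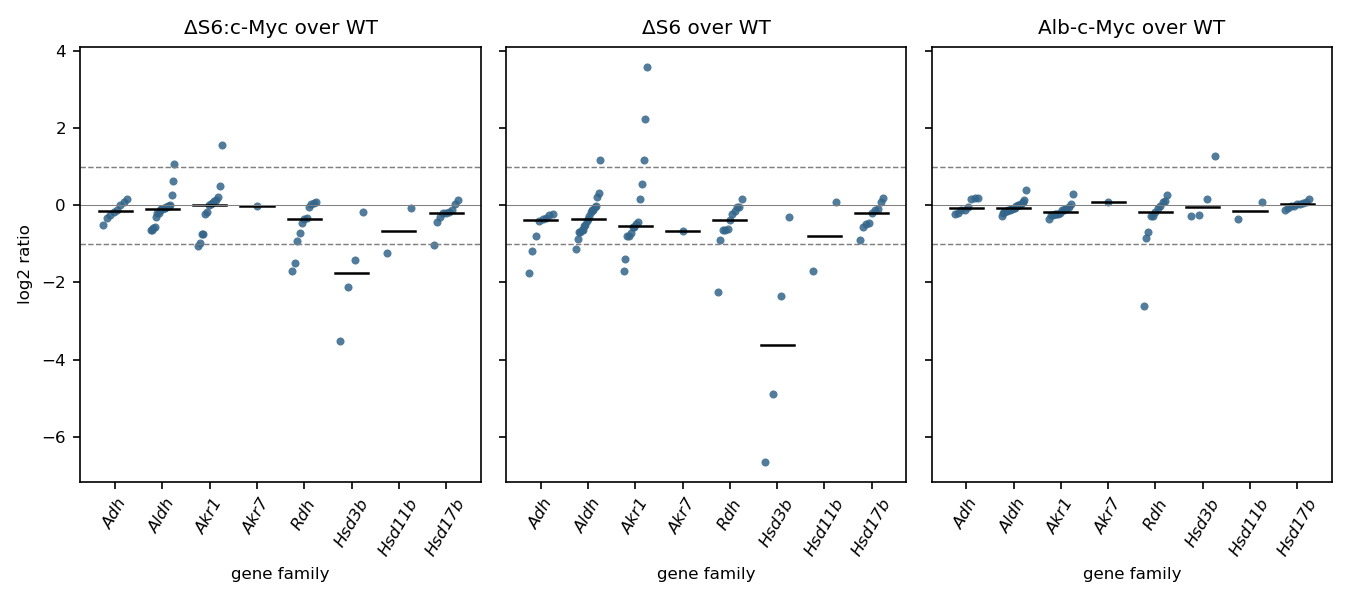
Log2 ratios over WT for the 68 genes by family, with a panel each for ΔS6:c-Myc, ΔS6 and Alb-c-Myc, a point per gene, a bar at the family median and dashed lines at 2-fold. Hsd3b points reach -6.65 in ΔS6 over WT, Akr1 points spread from -1.71 to 3.60 there, and Alb-c-Myc over WT has 1 Rdh point at -2.60 and 1 Hsd3b point at 1.27 past the lines.

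The steroid dehydrogenases held the largest differences. Hsd3b5, which in mouse encodes a 3-ketosteroid reductase of male liver, had log2 values of 8.43 in ΔS6:c-Myc, 5.30 in ΔS6, 13.23 in Alb-c-Myc and 11.96 in WT. It was high in both livers with intact Rps6, low in ΔS6:c-Myc and dim in ΔS6, where the size of the ratio is uncertain because the value is below 6. The log2 ratio was -6.65 in ΔS6 over WT and -4.80 in ΔS6:c-Myc relative to Alb-c-Myc. Between the livers with the deletion it was 3.13 (ΔS6:c-Myc over ΔS6). Hsd3b2, a second 3β-hydroxysteroid dehydrogenase, had 10.23 in ΔS6:c-Myc, 7.44 in ΔS6, 12.06 in Alb-c-Myc and 12.33 in WT. Its order over the arrays was like that of Hsd3b5 but for the 2 intact livers, which were close (-0.27), while Hsd3b5 was higher in Alb-c-Myc than in WT (1.27). The log2 ratio of Hsd3b2 was -4.89 in ΔS6 over WT and -1.84 in ΔS6:c-Myc relative to Alb-c-Myc. Hsd3b3, an isoform of liver and kidney in mouse, had 11.20 in ΔS6:c-Myc, 10.29 in ΔS6, 12.78 in Alb-c-Myc and 12.63 in WT. Both deletion livers were again below both intact ones, with -2.34 in ΔS6 over WT and -1.58 in ΔS6:c-Myc relative to Alb-c-Myc, and its other probe set gave -1.97 and -1.79. One probe set annotated to Hsd3b6, Hsd3b3 and Hsd3b2 together, which cannot be given to any one of them, had 10.83 in ΔS6:c-Myc, 9.51 in ΔS6, 12.48 in Alb-c-Myc and 12.50 in WT. Cross-hybridization among these near-identical genes was not tested. Hsd3b1, the isoform of adrenal and gonad, was between 6.07 and 6.38 on all arrays, just above the dim level of 6. From so low a value, a decrease like that of its neighbours could hardly be seen.

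The genes Hsd3b5, Hsd3b2, Hsd3b3 and Hsd3b1 follow each other on chromosome 3, with Hsd3b6 as the only other coding gene among them in the RefSeq annotation of GRCm38.p6. Because 3 of them were lower together in both livers with the deletion, their promoter windows are shown, from 250 bases before to 50 bases after the annotated start, as RefSeq gives them for GRCm38.p6. All 3 windows lie on the minus strand and are written 5′ to 3′, Hsd3b5 at chr3:98645485-98645784, Hsd3b2 at chr3:98724494-98724793 and Hsd3b3 at chr3:98762361-98762660, the first of 2 windows listed for that gene. Capitals mark runs of at least 12 bases found in another of the 3 windows.
Hsd3b5: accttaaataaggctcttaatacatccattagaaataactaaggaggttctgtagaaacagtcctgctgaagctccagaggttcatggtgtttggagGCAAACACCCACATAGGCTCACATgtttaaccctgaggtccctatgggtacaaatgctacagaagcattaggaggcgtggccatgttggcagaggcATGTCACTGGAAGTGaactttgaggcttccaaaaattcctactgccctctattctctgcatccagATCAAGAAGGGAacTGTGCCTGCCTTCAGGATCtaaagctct
Hsd3b2: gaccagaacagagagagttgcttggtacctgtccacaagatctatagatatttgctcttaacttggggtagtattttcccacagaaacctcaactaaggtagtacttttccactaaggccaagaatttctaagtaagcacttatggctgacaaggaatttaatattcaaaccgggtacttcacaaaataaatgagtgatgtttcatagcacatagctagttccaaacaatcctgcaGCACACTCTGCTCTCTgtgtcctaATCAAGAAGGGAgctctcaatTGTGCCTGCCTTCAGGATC
Hsd3b3: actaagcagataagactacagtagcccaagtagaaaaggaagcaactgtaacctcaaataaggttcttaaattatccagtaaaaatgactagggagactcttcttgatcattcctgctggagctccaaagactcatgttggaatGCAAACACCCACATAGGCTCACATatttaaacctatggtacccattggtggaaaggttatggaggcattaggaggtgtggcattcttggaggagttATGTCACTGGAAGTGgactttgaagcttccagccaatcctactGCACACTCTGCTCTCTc
Shared runs covered 70 bases in the Hsd3b5 window, 47 in Hsd3b2 and 55 in Hsd3b3, and the longest, of 24 bases, was common to Hsd3b5 and Hsd3b3. In pairwise alignment 56.0% of columns were identical between Hsd3b5 and Hsd3b3, 50.9% between Hsd3b5 and Hsd3b2 and 46.9% between Hsd3b2 and Hsd3b3. Of 6 short motifs searched on both strands, none was found in any of the 3 windows, which says only that these letters are not there. Over the 52 members with a window, TATAAA (the TATA box) was found in 15.4%, against 13.6% of all 32851 windows. TTCNNNGAA (a STAT5 type site) was found in 11.5% of members against 8.3%, TGACNNNGC (the core of the antioxidant response element) in 17.3% against 12.4%, and CACGTG (a Myc type E-box) in 9.62% against 7.15%. TTGCNNAA (a C/EBP type site) was found in 19.2%, or 10 members, against 10.8%, and TGANTCA (an AP-1 site, which can overlap TGACNNNGC) in 9.62% against 7.81%. With 52 members, each share rests on 5 to 10 genes. A member counted if any of its windows held the motif, and some members have 2 windows. This can raise the member shares against those of all windows, which were counted singly.

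**Figure D3:**
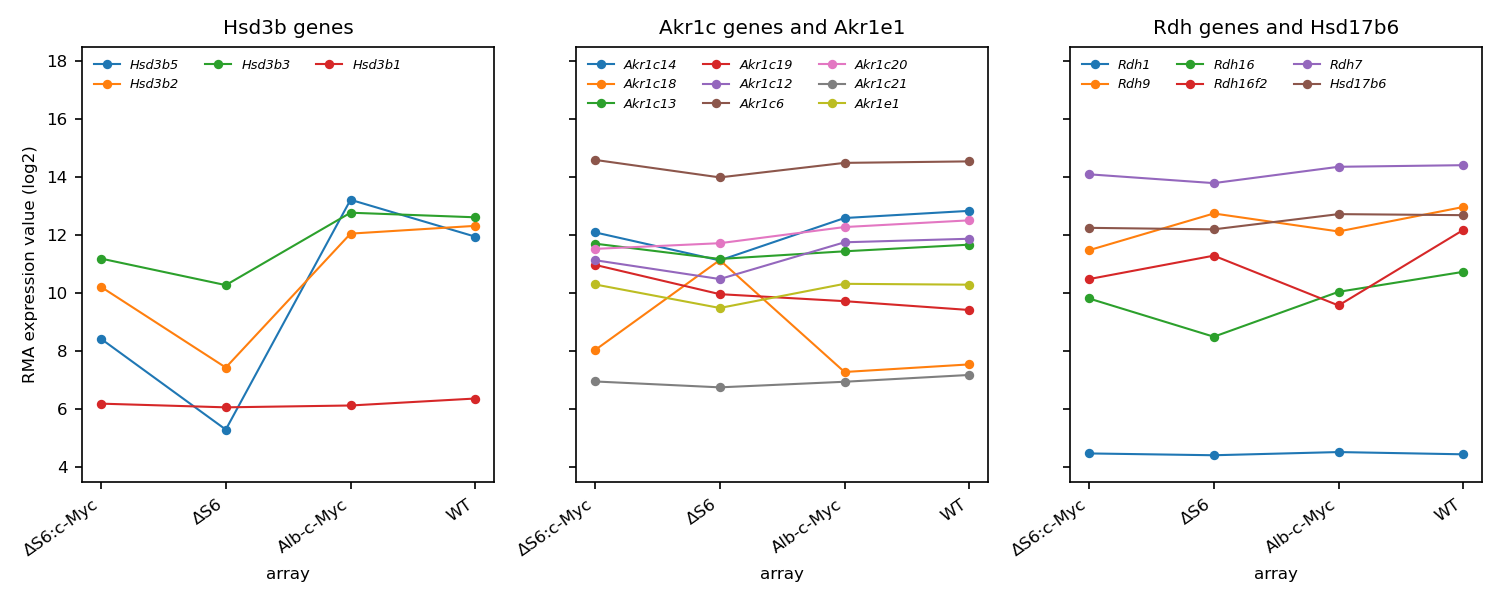
RMA expression values (log2) of genes that lie next to each other, for the Hsd3b genes of chromosome 3, the Akr1c genes with Akr1e1, and the Rdh genes with Hsd17b6, on the 4 arrays, where lines only join the values of 1 gene. Hsd3b5, Hsd3b2 and Hsd3b3 dip together in ΔS6, and Hsd3b1 lies between 6.07 and 6.38, too near the dim level of 6 to show a dip. Akr1c18 alone peaks in ΔS6 among the 9 genes of its row.

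Hsd11b1, the reductase that regenerates active glucocorticoid inside hepatocytes, had log2 values of 12.81 in ΔS6:c-Myc, 12.36 in ΔS6, 13.70 in Alb-c-Myc and 14.06 in WT. It was lower in both livers with the deletion, by -1.70 in ΔS6 over WT, -1.25 in ΔS6:c-Myc over WT and -0.89 in ΔS6:c-Myc relative to Alb-c-Myc. H6pd, which supplies its cofactor, was at -0.32 in ΔS6 over WT, and Hsd11b2, the kidney enzyme that runs the opposite way, was between 6.43 and 6.60. Hsd17b11, a lipid droplet enzyme that oxidizes androgen metabolites, had 12.73 in ΔS6:c-Myc, 12.86 in ΔS6, 13.76 in Alb-c-Myc and 13.77 in WT. Its values fell into an upper pair with Rps6 intact and a lower pair with the deletion. It was at -0.91 in ΔS6 over WT and -1.03 in ΔS6:c-Myc relative to Alb-c-Myc, or -0.90 in the latter with its 3 probe sets averaged. Its neighbour Hsd17b13, another lipid droplet protein, did not share this difference, at 12.46 in ΔS6:c-Myc, 12.74 in ΔS6, 12.73 in Alb-c-Myc and 12.65 in WT. The other 8 Hsd17b genes were within -0.56 to 0.20 in ΔS6 over WT, among them Hsd17b2, which inactivates estradiol and testosterone (-0.56), Hsd17b10 of mitochondria (-0.45) and Hsd17b12, a reductase of fatty acid elongation (-0.19).

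The aldo-keto reductases went both ways. Akr1c18, the 20α-hydroxysteroid dehydrogenase that inactivates progesterone, had log2 values of 8.05 in ΔS6:c-Myc, 11.15 in ΔS6, 7.29 in Alb-c-Myc and 7.55 in WT. Only the ΔS6 array was high, with 3.60 in ΔS6 over WT, the largest increase among the 68 genes, and -3.10 in ΔS6:c-Myc over ΔS6. Akr1b8, a reductase of retinal and lipid aldehydes, had 7.99 in ΔS6:c-Myc, 10.08 in ΔS6, 7.76 in Alb-c-Myc and 7.85 in WT, and its neighbour Akr1b10 had 7.48 in ΔS6:c-Myc, 8.55 in ΔS6, 7.25 in Alb-c-Myc and 7.38 in WT. Both followed the pattern of Akr1c18 over the arrays, with 2.23 and 1.17 in ΔS6 over WT and 0.14 and 0.10 in ΔS6:c-Myc over WT. These 3 genes were high on the array where the bile duct, neutrophil and macrophage markers were also highest.

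Other members of the Akr1c cluster were lower in ΔS6. Akr1c14, a 3α-hydroxysteroid dehydrogenase, had 12.11 in ΔS6:c-Myc, 11.14 in ΔS6, 12.60 in Alb-c-Myc and 12.85 in WT, and Akr1c12 had 11.15 in ΔS6:c-Myc, 10.50 in ΔS6, 11.76 in Alb-c-Myc and 11.89 in WT. Both were lowest in ΔS6 and next lowest in ΔS6:c-Myc, at -1.71 and -1.39 in ΔS6 over WT, and both were at -0.74 in ΔS6:c-Myc over WT. The probe set that Akr1c12 shares with Akr1c13 gave only -0.70 in ΔS6 over WT. Akr1c19 had another pattern, with 10.99 in ΔS6:c-Myc, 9.98 in ΔS6, 9.73 in Alb-c-Myc and 9.43 in WT, so that its highest value was in ΔS6:c-Myc (1.56 over WT, 1.01 over ΔS6 and 1.25 over Alb-c-Myc). Akr1d1, the 5β-reductase of bile acid and steroid hormone metabolism, had 11.58 in ΔS6:c-Myc, 11.93 in ΔS6, 12.43 in Alb-c-Myc and 12.63 in WT. It was lower in both livers with the deletion and lowest in ΔS6:c-Myc, where it was at -1.05 over WT. Akr1c6, a 17β-hydroxysteroid dehydrogenase of mouse liver, differed less, with 14.61 in ΔS6:c-Myc, 14.00 in ΔS6, 14.50 in Alb-c-Myc and 14.55 in WT. In the RefSeq order of GRCm38.p6, 9 genes (Akr1c14, Akr1c18, Akr1c13, Akr1c19, Akr1c12, Akr1c6, Akr1c20, Akr1c21 and Akr1e1) follow each other with no other coding gene between. Their log2 ratios ran from -1.71 to 3.60 in ΔS6 over WT, with a median of -0.55, and Akr1c14 and Akr1c18, which stood at the 2 ends, are next to each other. Akr7a5, an aldehyde reductase, had 12.83 in ΔS6:c-Myc, 12.16 in ΔS6, 12.94 in Alb-c-Myc and 12.83 in WT, so that ΔS6 alone was lower.

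The alcohol dehydrogenases were lower in ΔS6 than in WT to differing degrees. Adh4, which oxidizes longer alcohols and retinol, had log2 values of 12.28 in ΔS6:c-Myc, 10.69 in ΔS6, 12.32 in Alb-c-Myc and 12.44 in WT. The ΔS6 array was low and the other 3 were within 0.16 of each other, so that Adh4 was at -1.75 in ΔS6 over WT, 1.59 in ΔS6:c-Myc over ΔS6 and -0.04 in ΔS6:c-Myc relative to Alb-c-Myc. Adh1, the main ethanol dehydrogenase of liver, had 14.96 in ΔS6:c-Myc, 14.66 in ΔS6, 14.84 in Alb-c-Myc and 14.88 in WT. It differed by -0.21 in ΔS6 over WT, which is the size of the spread between probe sets of a gene in that comparison (an SD of 0.21 over 15 member genes with 34 probe sets). Adh5, which clears formaldehyde bound to glutathione, was at -0.35 and Adh7, the stomach enzyme, at -0.32. Adh7, Adh1, Adh6a, Adh6b, Adh6-ps1, Adh4 and Adh5 lie in a row, and ratios in ΔS6 over WT ran from -1.75 to -0.21 along it. Adhfe1, an iron-type enzyme that oxidizes γ-hydroxybutyrate and was included for its name, had 11.75 in ΔS6:c-Myc, 11.09 in ΔS6, 12.45 in Alb-c-Myc and 12.26 in WT, with -1.17 in ΔS6 over WT, or -0.90 with its 3 probe sets averaged. Aldh5a1 oxidizes succinic semialdehyde, the product of that reaction. It had 10.01 in ΔS6:c-Myc, 9.52 in ΔS6, 10.65 in Alb-c-Myc and 10.65 in WT, and like Adhfe1 it was lowest in ΔS6 (-1.12 over WT) and second lowest in ΔS6:c-Myc (-0.63 over WT).

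Among aldehyde dehydrogenases only 1 was at least 2-fold higher. Aldh1b1, a mitochondrial enzyme that can oxidize acetaldehyde, had 11.47 in ΔS6:c-Myc, 11.57 in ΔS6, 10.78 in Alb-c-Myc and 10.39 in WT. Both livers with the deletion were above both with Rps6 intact. The log2 ratio was 1.18 in ΔS6 over WT, 1.08 in ΔS6:c-Myc over WT and 0.69 in ΔS6:c-Myc relative to Alb-c-Myc. In ΔS6 over Alb-c-Myc it was 0.79, under 2-fold. Aldh2, the main mitochondrial acetaldehyde dehydrogenase, had 13.62 in ΔS6:c-Myc, 13.15 in ΔS6, 13.59 in Alb-c-Myc and 13.69 in WT, so that it went the other way from Aldh1b1 in ΔS6. The folate enzyme Aldh1l1 had 13.52 in ΔS6:c-Myc, 13.60 in ΔS6, 13.99 in Alb-c-Myc and 14.10 in WT, under 2-fold in all comparisons. Enzymes of amino acid breakdown were also lower without reaching 2-fold, with -0.88 in ΔS6 over WT for Aldh6a1 (valine), -0.64 for Aldh4a1 (proline) and -0.36 for Aldh7a1 (lysine), and Aldh9a1, of carnitine synthesis, was at -0.68. Over the 12 members listed for clearance of reactive aldehydes, 0 were lower and 3 higher (Aldh1b1, Akr1b8 and Akr1b10) in ΔS6 over WT, with a median of -0.22. Over Alb-c-Myc, 0 were lower and 2 higher. The shares of all genes were 2.54% lower and 7.24% higher over WT, and 2.23% and 7.0% over Alb-c-Myc.

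In the retinoid branch, Rdh16, a short-chain dehydrogenase that oxidizes retinol and steroids, had log2 values of 9.83 in ΔS6:c-Myc, 8.51 in ΔS6, 10.06 in Alb-c-Myc and 10.75 in WT. It was lowest in ΔS6, at -2.24 over WT and -1.55 over Alb-c-Myc, and 1.32 higher in ΔS6:c-Myc than in ΔS6. Rdh16f2, named as a family member of Rdh16, had 10.49 in ΔS6:c-Myc, 11.30 in ΔS6, 9.59 in Alb-c-Myc and 12.19 in WT. Unlike any other member it was lowest in Alb-c-Myc by a wide margin, at -2.60 over WT. Its direction in ΔS6 depended on the array it was set against, with 1.72 over Alb-c-Myc and -0.89 over WT. The same held in ΔS6:c-Myc, with 0.91 relative to Alb-c-Myc and -1.70 over WT. Rdh9, which acts on retinol and on 3α-hydroxysteroids, had 11.49 in ΔS6:c-Myc, 12.76 in ΔS6, 12.14 in Alb-c-Myc and 12.98 in WT. Both livers with the transgene were below both without it, by -0.84 in Alb-c-Myc over WT, -1.49 in ΔS6:c-Myc over WT and -1.27 in ΔS6:c-Myc over ΔS6. Rdh7, a close relative, had 14.11 in ΔS6:c-Myc, 13.81 in ΔS6, 14.37 in Alb-c-Myc and 14.42 in WT, and Hsd17b6, which lies in the same row of genes, was at -0.49 in ΔS6 over WT. The row of Rdh1, Rdh9, Rdh16, Rdh16f2, Rdh7 and Hsd17b6, with Rdh19 and Sdr9c7 between them, ran from -2.24 to -0.03 in ΔS6 over WT and from -2.60 to 0.08 in Alb-c-Myc over WT. Rdh10 and Rdh11, which act at the retinol and retinal step in many tissues, were at -0.64 and -0.05 in ΔS6 over WT. The retinal dehydrogenase Aldh1a1 had 14.22 in ΔS6:c-Myc, 13.56 in ΔS6, 13.83 in Alb-c-Myc and 13.95 in WT. Its neighbour Aldh1a7, whose activity on retinal was not examined here, had 14.33 in ΔS6:c-Myc, 13.92 in ΔS6, 13.68 in Alb-c-Myc and 13.70 in WT. Both were highest in ΔS6:c-Myc, within 2-fold.

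The effect of the deletion without and with the transgene was read from 2 pairs of arrays that share none, ΔS6 with WT and ΔS6:c-Myc with Alb-c-Myc. In ΔS6:c-Myc relative to Alb-c-Myc, 4 members were at least 2-fold lower, 5.88% against 1.36% of all genes, and 1 was higher, 1.47% against 1.99%. Hsd3b5, Hsd3b2 and Hsd3b3 were at least 2-fold lower in both, with less negative ratios in the presence of the transgene. Adh4, Adhfe1, Akr1c12, Akr1c14, Aldh5a1, Hsd11b1 and Rdh16 were past 2-fold lower without the transgene alone, and with it they lay between -0.89 (Hsd11b1) and -0.04 (Adh4). Akr1c18, Akr1b8, Akr1b10 and Aldh1b1 were past 2-fold higher without it alone, with 0.76, 0.23, 0.24 and 0.69 in its presence. Hsd17b11 was past 2-fold lower and Akr1c19 past 2-fold higher with the transgene alone, at -0.91 and 0.55 without it. The remaining 52 members were within 2-fold in both, and 0 passed it in opposite directions. Whether the 2 effects differ could not be tested with 1 array per genotype. Set directly against ΔS6, ΔS6:c-Myc had 5 members at least 2-fold higher, 7.35% against 0.769% of all genes (Hsd3b5, Hsd3b2, Adh4, Rdh16 and Akr1c19), and 4 lower, 5.88% against 4.29% (Akr1c18, Akr1b8, Rdh9 and Akr1b10). The median was 0.24 over members and 0.05 over all genes.

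**Figure D4:**
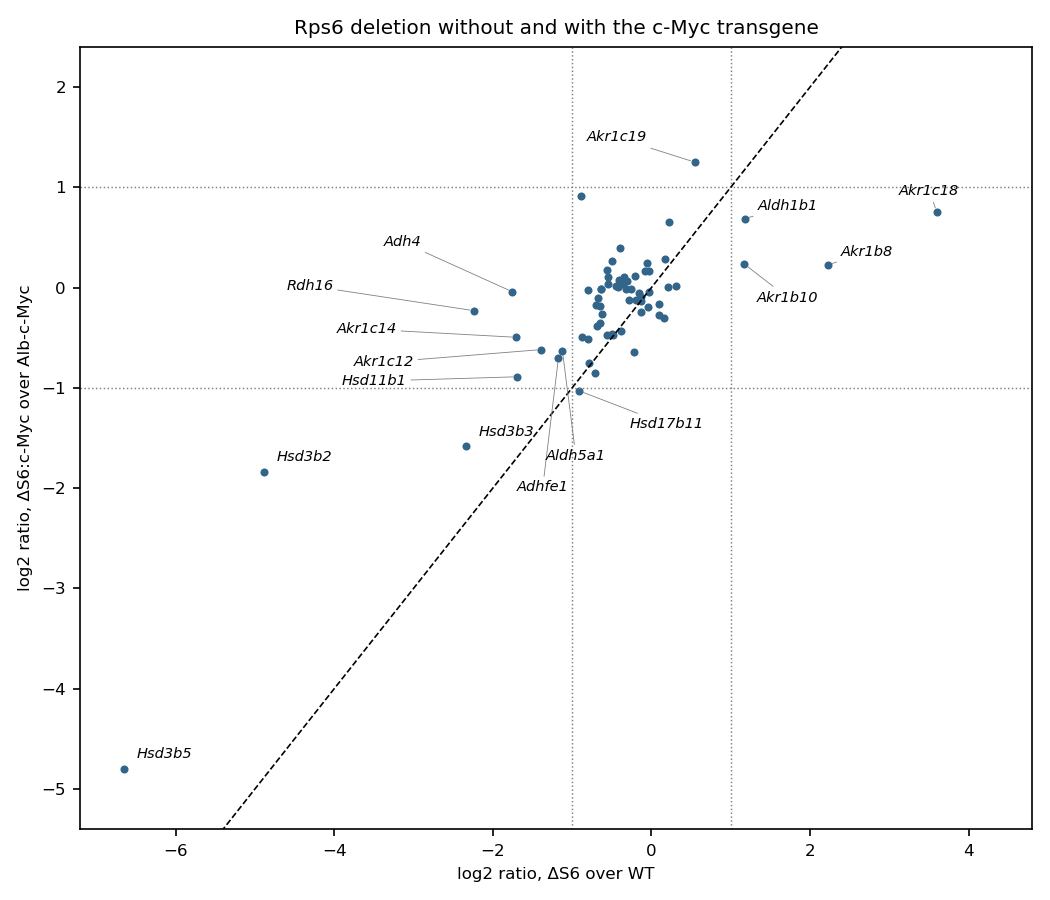
Log2 ratio of ΔS6:c-Myc relative to Alb-c-Myc against that of ΔS6 over WT for the 68 genes, with dotted lines at 2-fold, a dashed line where both are equal, and names for genes past 2-fold in either. The 3 Hsd3b genes lie lowest at the left, Adh4 sits at -1.75 and -0.04, and Akr1c18 at 3.60 and 0.76.

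Genes that work beside these enzymes were counted from lists of partners, chosen with earlier results of these data known. For comparison with each count, the shares of all genes in ΔS6 were 2.54% lower and 7.24% higher over WT. Over Alb-c-Myc they were 2.23% and 7.0%. Of 21 measured retinoid partners, 5 were at least 2-fold lower and 1 higher in ΔS6 over WT, with a median of -0.44. The lower ones were the carboxylesterases Ces1e (-3.39) and Ces1d (-2.21), the retinol saturase Retsat (-1.81), the retinoic acid hydroxylase Cyp26a1 (-1.32) and the carotenoid oxygenase Bco2 (-1.31), and Bco1, which makes retinal from β-carotene, was at 1.04. Against Alb-c-Myc 4 were lower and 1 higher, since Cyp26a1 was at 8.46 in ΔS6 and 8.45 in Alb-c-Myc, against 9.78 in WT. Of 17 alcohol and aldehyde partners 4 were lower and 3 higher, with a median of -0.55, from the aldehyde oxidase Aox3 (-1.65) to the carbonyl reductase Cbr3 (4.11), and Cyp2e1, the ethanol-oxidizing cytochrome, was at -0.69. Against Alb-c-Myc 2 of them were lower and 3 higher. Of 21 steroid partners 6 were lower and 1 higher in ΔS6 over WT, with a median of -0.39. Against Alb-c-Myc 6 were lower and 2 higher, the second being the steroid hydroxylase Cyp17a1, at 10.94 in ΔS6, 9.01 in Alb-c-Myc and 10.60 in WT. The one higher over WT, the estrogen sulfotransferase Sult1e1, had log2 values of 5.29 in ΔS6:c-Myc, 10.59 in ΔS6, 4.91 in Alb-c-Myc and 5.40 in WT, high in ΔS6 alone as Akr1c18 was. The 24 steroid enzymes among the members themselves had 6 lower and 1 higher over WT, with a median of -0.49, and the same counts over Alb-c-Myc.

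Several members are known as sex-biased in mouse liver, so the sex-biased lists are given beside them. For all genes, the shares in ΔS6 were 2.54% lower and 7.24% higher over WT, and 2.23% and 7.0% over Alb-c-Myc. They were 0.335% and 0.418% in Alb-c-Myc over WT, and 1.36% and 1.99% in ΔS6:c-Myc relative to Alb-c-Myc. Of 13 measured male-biased genes, a list without Hsd3b5, 9 were at least 2-fold lower and 0 higher in ΔS6 over WT, with a median of -1.98, and against Alb-c-Myc 9 were also lower. In ΔS6:c-Myc relative to Alb-c-Myc 8 were lower, with a median of -1.18. In Alb-c-Myc over WT 1 was lower and 2 higher, with a median of 0.19. Cyp4a12a, a fatty acid hydroxylase of male liver, had 10.82 in ΔS6:c-Myc, 8.01 in ΔS6, 13.80 in Alb-c-Myc and 13.36 in WT, the same order of arrays as Hsd3b5. Of 14 female-biased genes, 5 were at least 2-fold lower and 2 higher in ΔS6 over WT, with a median of -0.38, but 0 were lower and 6 higher over Alb-c-Myc, with a median of 0.84. In Alb-c-Myc over WT 9 were lower and 0 higher, with a median of -1.52, and in ΔS6:c-Myc relative to Alb-c-Myc 0 were lower and 8 higher, with a median of 1.06. Prom1 (4.38 in ΔS6 over WT, 5.31 over Alb-c-Myc), counted among the higher ones, is also on the bile duct and progenitor list. Sult3a1 was at 4.17 to 4.28 on the 3 other arrays, against 9.15 in WT, where Xist was also high, whereas Cyp2b9 was at 12.10 in ΔS6:c-Myc, 9.89 in ΔS6, 7.89 in Alb-c-Myc and 11.77 in WT. Rdh16f2 and Rdh9 were highest on that WT array too. The part of sex in these differences was not tested. Of 20 regulators of liver detoxification and sex-biased genes, 4 were lower in ΔS6 over WT and 0 higher, namely the lipid-sensing receptor Ppara (-1.78), the growth hormone receptor Ghr (-1.47), Onecut1 (-1.20) and Cebpa (-1.11). Over Alb-c-Myc 4 were lower and 1 higher, the dioxin receptor Ahr (1.14 there and 0.58 over WT). Nrf2 and Ahr are factors that induce several Akr and Aldh genes. Of 16 of their targets, 4 were higher and 1 lower (Cyp1a2, -1.29) in ΔS6 over WT, with a median of 0.41. Over Alb-c-Myc, 6 were higher and 0 lower. Hmox1 was at 2.77 over WT and 2.76 over Alb-c-Myc, and Cyp1a1 at 1.88 and 1.85. In ΔS6:c-Myc over WT 4 targets were higher and 0 lower, against 3.00% and 1.80% of all genes. Akr1b8 and Akr1b10 were at 0.14 and 0.10 in that comparison. The part of Nrf2 and Ahr in the Akr and Aldh differences was not tested. Nqo1 was at 0.59 over WT and 0.80 over Alb-c-Myc. Aldh3a1, an Ahr target of the Aldh family, was between 4.46 and 4.75 on all arrays.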

How the data were processed

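Total liver RNA of 3 mice per genotype was combined in equal amounts and measured on 1 Affymetrix mouse array per genotype. What the authors deposited is a log2 value for each probe set, made by RMA and then quantile-normalized. RMA and affy are named in the submitters' processing notes, with versions not given in the sources used here. Detection calls were not used here, and array depth has no count, so the single array per genotype limits the precision.

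Of 45101 probe sets, 34958 carry 1 gene symbol in the platform annotation, 932 several and 9211 none. Each gene was given the probe set whose mean on these 4 arrays was highest, which gave 18194 genes. All 68 members matched the RefSeq gene table (GRCm38.p6), and 7 probe sets that share a member name with another gene were kept apart. Log2 ratios were computed for 5 pairs of arrays and counted at 2-fold beside the share of all genes. Genes named with all 4 values are those past 2-fold in any comparison with a value of at least 6 on an array, and the member of each family with the highest WT value. Aldh2, Aldh1a1, Aldh1a7, Hsd17b13 and other members outside this rule were named for their role or position after their values were seen. Members and lists were chosen with earlier results of these data known. The spread between probe sets of 1 gene with a mean of at least 8 served as the tolerance. Summed marker levels are log2 of the sum of the linear values. The counting steps were tested on simulated data. Alternatives were median-centring, renewed quantile normalization, other probe set choices, a filter at a mean of 6, thresholds of 1.5-fold and 4-fold, and the Alb-c-Myc array in place of WT, which was extended to the gene lists after seeing the data. Promoter windows came from RefSeq (52 of 68 members matched). Python 3.11.15, numpy 2.4.6, pandas 2.3.3 and matplotlib 3.10.9 were used.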

Additional observations from a re-analysis of the deposited data

How the results depend on the processing

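No paired analysis was possible because each genotype has 1 array. No member's value past 2-fold changed sign under the alternatives run, and the medians over members stayed within the spread between probe sets. Counts of members moved by over 1.5 times only with the threshold. At 4-fold, ΔS6 over WT had 4 members lower (0.544% of all genes) and 2 higher (1.98%), ΔS6:c-Myc over WT 2 lower (0.247%) and 0 higher (0.368%), and Alb-c-Myc over WT 0 higher (0.0440%). ΔS6:c-Myc over ΔS6 had 2 lower (0.841%) and 2 higher (0.115%), and ΔS6:c-Myc relative to Alb-c-Myc 1 lower (0.154%) and 0 higher (0.286%). At 1.5-fold, ΔS6 over WT had 25 lower (7.06% of all genes), ΔS6:c-Myc over WT 15 lower (5.2%) and Alb-c-Myc over WT 3 lower (0.951%). ΔS6:c-Myc over ΔS6 had 13 higher (4.0%), and ΔS6:c-Myc relative to Alb-c-Myc 11 lower (4.28%) and 5 higher (6.82%).

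Averaging all probe sets took Adhfe1 to -0.90 in ΔS6 over WT, and Hsd17b11 to -0.69 in ΔS6:c-Myc over WT and -0.90 in ΔS6:c-Myc relative to Alb-c-Myc, all under 2-fold. It took Akr1c20 to -1.31 in ΔS6 over WT and -1.19 in ΔS6:c-Myc over WT, and Aldh1l1 to -1.03 in ΔS6:c-Myc relative to Alb-c-Myc, all past it. The shared probe set took Akr1c12 to -0.70 in ΔS6 over WT. Set against the Alb-c-Myc array, ΔS6 had Aldh1b1 at 0.79, Hsd3b5 at -7.93, Rdh16f2 at 1.72 and Rdh9 at 0.62. The last 2 were below 0 against WT, within 2-fold. Against the Alb-c-Myc array, 2.23% of all genes were lower and 7.0% higher in ΔS6. For gene lists, this reference was chosen after seeing the data. It gave 2 alcohol and aldehyde partners lower, 2 steroid partners higher, 0 female-biased genes lower and 6 higher, 1 regulator higher, 0 targets of Nrf2 and Ahr lower, and 2 retinoid members higher. The female-biased gene Cyp2b9 was at 2.00 in ΔS6 over Alb-c-Myc and -1.88 in ΔS6 over WT. Dim values limit the size of ratios, above all for Hsd3b5 in ΔS6, and without replicates a ratio near 2-fold cannot be told apart from variation between pools.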

Other observations

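Dimmer probe sets of some members gave other values than the brightest one. Akr1c20 was at -0.79 in ΔS6 over WT by its brighter probe set and at -1.83 by the other, which read 7.58 in ΔS6:c-Myc, 7.15 in ΔS6, 7.83 in Alb-c-Myc and 8.98 in WT. Akr1b10 was at 1.17 in ΔS6 over WT by the brightest of 3 probe sets and at 2.23 by the next, which read 5.69 in ΔS6:c-Myc, 7.79 in ΔS6, 5.47 in Alb-c-Myc and 5.56 in WT. Aldh1a3, a retinal dehydrogenase, was at -0.03 in ΔS6 over WT by its brightest probe set and at 1.22 by its dimmest, which read 4.84 in ΔS6:c-Myc, 6.05 in ΔS6, 4.68 in Alb-c-Myc and 4.83 in WT. Aldh1l1 was at -0.47 in ΔS6:c-Myc relative to Alb-c-Myc by its brighter probe set and at -1.60 by the other. Which transcripts these probe sets detect was not analysed here.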
